A study of Homo sapiens with 12 samples.

Results

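The genes described here are 9 genes that mark the identity of hepatocytes: ALB, APOA1, APOB, AMBP, HNF4A, TTR, CPS1, TAT and TF. They were chosen by name from a rule on intervals of every mark over the gene and 5 kb on either side, and make up 9 of the 19974 protein-coding genes annotated on chromosomes 1 to 22 and X of GRCh38. The gene span with these flanks is called the window. The cells were KBM-7, a near-haploid human leukaemia line of blood origin that was grown without treatment. Chromatin immunoprecipitation with sequencing was done once for each of 9 histone modifications, and 3 input libraries completed the 12 samples. All libraries came from this untreated line, so the design holds no second condition, and the comparison made is of the 9 liver genes with all protein-coding genes.

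Hepatocytes make most proteins of the blood plasma, assemble lipoproteins, and turn ammonia into urea. The genes for this work are switched on by a network of liver transcription factors with HNF4A at its centre, and most of them are silent in blood cells. H3K27me3 is laid down by Polycomb repressive complex 2 over silent developmental and tissue genes, and H3K9me3 marks heterochromatin. H3K4me3, H3K9ac and H3K27ac lie at active promoters, with H3K27ac also at active enhancers, H3K4me1 and H3K4me2 lie at enhancers and around promoters, and H3K79me2 and H3K36me3 lie over transcribed gene bodies.

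The deposited values are positions of called intervals with the name of a mark, with nothing that measures strength. Sequencing depth is therefore not known, and a mark without an interval was not called rather than shown to be absent. With 1 library per mark there is no replicate, no spread and no test, and all values are set side by side as a description. Intervals under the labels H3K36me3 and H4K16ac are identical and are given as 1 set. Rows under the label H3K9me3 match no sample's labels, so the library they came from is not known, and each result that uses them is given as a result on those rows. H3K27me3 covered 30.2% and H3K9me3 33.6% of these chromosomes. The blood progenitor genes read were SPI1, PTPRC, RUNX1, MYB, LYL1, CD34, GATA2, FLI1, TAL1 and SPN. Of these 10, 10 had H3K4me3 in their window, 9 had H3K27ac and 0 had H3K27me3, against 58.4%, 10.9% and 44.4% of protein-coding genes. H3K9me3 rows were at 4 of the 10, against 68.4%. This list was chosen with earlier results of these data known, so it describes the cell line and does not check it.

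The sequences around the annotated starts of ALB, HNF4A and TF are shown because they carry the contrasts that follow: a start under H3K27me3 alone, the pair of HNF4A promoters, and a gene with an H3K4me3 start and a start under both repressive marks. Each is 300 bases, 250 before the start and 50 from it on, from RefSeq on GRCh38.p14, written 5′ to 3′ on the plus strand, and capitals mark CG dinucleotides. The positions are chr4:73404037-73404336 for ALB, chr20:44355449-44355748 for HNF4A start 1, chr20:44400989-44401288 for HNF4A start 2, chr3:133661748-133662047 for TF start 1 and chr3:133746143-133746442 for TF start 2.
ALB start: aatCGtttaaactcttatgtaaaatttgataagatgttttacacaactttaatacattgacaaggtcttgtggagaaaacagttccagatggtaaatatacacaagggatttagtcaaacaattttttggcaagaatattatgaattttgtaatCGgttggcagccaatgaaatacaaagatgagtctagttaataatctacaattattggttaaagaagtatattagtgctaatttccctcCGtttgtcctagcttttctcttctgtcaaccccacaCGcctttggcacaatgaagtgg
HNF4A start 1: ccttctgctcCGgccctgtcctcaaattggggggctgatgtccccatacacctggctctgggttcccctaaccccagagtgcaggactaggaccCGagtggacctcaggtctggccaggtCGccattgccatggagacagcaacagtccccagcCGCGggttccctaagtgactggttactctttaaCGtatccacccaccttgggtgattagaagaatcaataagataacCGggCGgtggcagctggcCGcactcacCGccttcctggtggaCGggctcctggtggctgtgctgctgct
HNF4A start 2: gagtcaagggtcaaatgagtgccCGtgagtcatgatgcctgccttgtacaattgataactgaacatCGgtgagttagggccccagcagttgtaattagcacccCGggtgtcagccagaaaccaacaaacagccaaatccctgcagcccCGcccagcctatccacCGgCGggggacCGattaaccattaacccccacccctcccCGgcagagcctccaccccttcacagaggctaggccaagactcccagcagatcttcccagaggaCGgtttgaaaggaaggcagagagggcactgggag
TF start 1: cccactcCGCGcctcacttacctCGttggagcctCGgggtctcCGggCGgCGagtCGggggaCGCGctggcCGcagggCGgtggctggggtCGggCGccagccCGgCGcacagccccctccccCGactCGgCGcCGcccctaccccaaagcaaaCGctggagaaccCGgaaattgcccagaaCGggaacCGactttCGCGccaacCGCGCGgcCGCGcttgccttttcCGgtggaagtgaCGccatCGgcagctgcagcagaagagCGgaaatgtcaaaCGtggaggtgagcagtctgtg
TF start 2: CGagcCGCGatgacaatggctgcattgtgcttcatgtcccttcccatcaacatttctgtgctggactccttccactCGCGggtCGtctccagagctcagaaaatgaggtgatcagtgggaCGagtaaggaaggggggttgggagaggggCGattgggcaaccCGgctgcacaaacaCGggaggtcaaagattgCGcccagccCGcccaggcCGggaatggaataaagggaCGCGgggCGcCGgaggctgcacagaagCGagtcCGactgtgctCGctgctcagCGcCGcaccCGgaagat

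The table of starts listed 9 starts for 5 of the 9 genes, namely ALB, AMBP, HNF4A, CPS1 and TF; APOA1, APOB, TTR and TAT are the others. The capitals show how unlike these starts are. TF start 1 had 36 CG dinucleotides in 300 bases and TF start 2 had 23. HNF4A start 1 had 11, HNF4A start 2 had 9, AMBP had 6 and ALB had 4, and CPS1 starts 1, 2 and 3 had 1, 3 and 3. The median over 22132 listed starts of 15812 protein-coding genes was 21, so the TF starts lay above it and the other 7 starts below it. Among all starts the median was 29 for those under H3K4me3, 11 for those under H3K27me3 and 10 for those under H3K9me3.

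H3K27me3 lay over nearly all of the 9 liver genes. It was present in the window of 8 of the 9, all but APOA1, where 44.4% of protein-coding genes had it. It covered at least 80% of the window in 6 of the 9 (ALB, APOB, AMBP, HNF4A, TAT and TF), against 14.9% of protein-coding genes. Among regions at or above the median width alone, this held for 2 of the 9 (APOB and HNF4A), against 10.8%, and the median over the 9 genes was 61.1%. The median share of the window under H3K27me3 was 86.7% over the 9 genes, from 0% at APOA1 to 94.7% at AMBP, against a median of 0% and a mean of 22.8% over all protein-coding genes. TF, at 85.8%, lay closest above the 80% line and TTR, at 50.9%, closest below it.

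The H3K9me3 rows named the same 8 genes. They were in the window of 8 of the 9 genes, where 68.4% of protein-coding genes had such a row, and covered at least 80% of the window in 4 (AMBP, TTR, TAT and TF), against 13.4%. The median share of the window was 73.4%, from 0% at APOA1 to 100% at TTR and TAT, against a median of 11.7% and a mean of 27.9% over all protein-coding genes. Both repressive marks were in the window of 8 of the 9 genes, against 41.0% of protein-coding genes.

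Marks of active chromatin were present at fewer of them. H3K4me3 was in the window of 4 of the 9 genes (APOA1, CPS1, TAT and TF), against 58.4% of protein-coding genes. H3K9ac was at the same 4 genes, against 62.9%, and H3K4me2 at the same 4, against 78.2%. H3K4me1 was at 3 (APOA1, HNF4A and TF), against 56.4%. H3K79me2 was at TF alone, against 47.6%, and the H3K36me3/H4K16ac set at CPS1 and TF, against 56.3%. H3K27ac was at APOA1 alone, against 10.9%, a share close to that of 1 gene in 9. The median share of the window was 0% for each of these 7 sets. Over all protein-coding genes the median was also 0% for H3K27ac and H3K79me2. It was 0.82% for H3K4me1, 0.97% for H3K4me3, 1.67% for H3K9ac, 6.33% for H3K36me3/H4K16ac and 6.37% for H3K4me2.

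**Figure D1:**
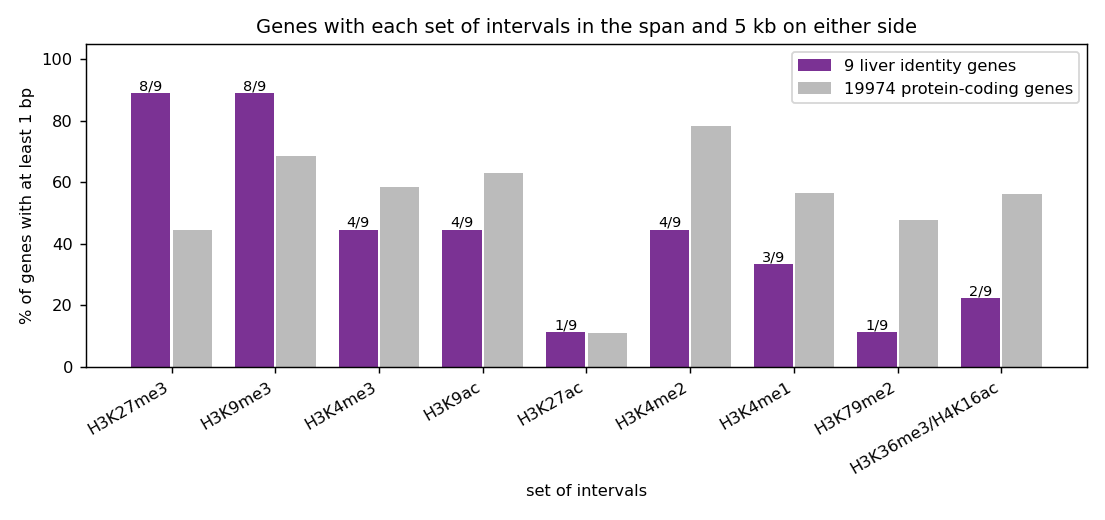
Bars give the percent of genes with at least 1 bp of each set of intervals in the span and 5 kb on either side, for the 9 liver identity genes and for 19974 protein-coding genes, with the number of liver genes written above their bars. The liver genes stand above all genes for H3K27me3 and H3K9me3, about level with them for H3K27ac, and below them for the other 6 sets.

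The windows fell into 3 kinds. ALB, APOB, AMBP, HNF4A and TTR had both repressive marks and none of H3K4me3, H3K9ac, H3K27ac, H3K79me2 or H3K36me3/H4K16ac, a state held by 22.1% of protein-coding genes. CPS1, TAT and TF had H3K27me3 and H3K4me3 in the same window, against 16.1%. Among the 9, only APOA1 had active marks and neither repressive mark. The share of protein-coding genes in that state was not counted. H3K27me3 was in 44.4% of protein-coding windows, H3K9me3 rows in 68.4% and both in 41.0%, so windows with neither are not rare. None of the 9 windows was free of intervals, against 3.61% of protein-coding windows, a share too small for 9 genes to show a difference.

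**Figure D2:**
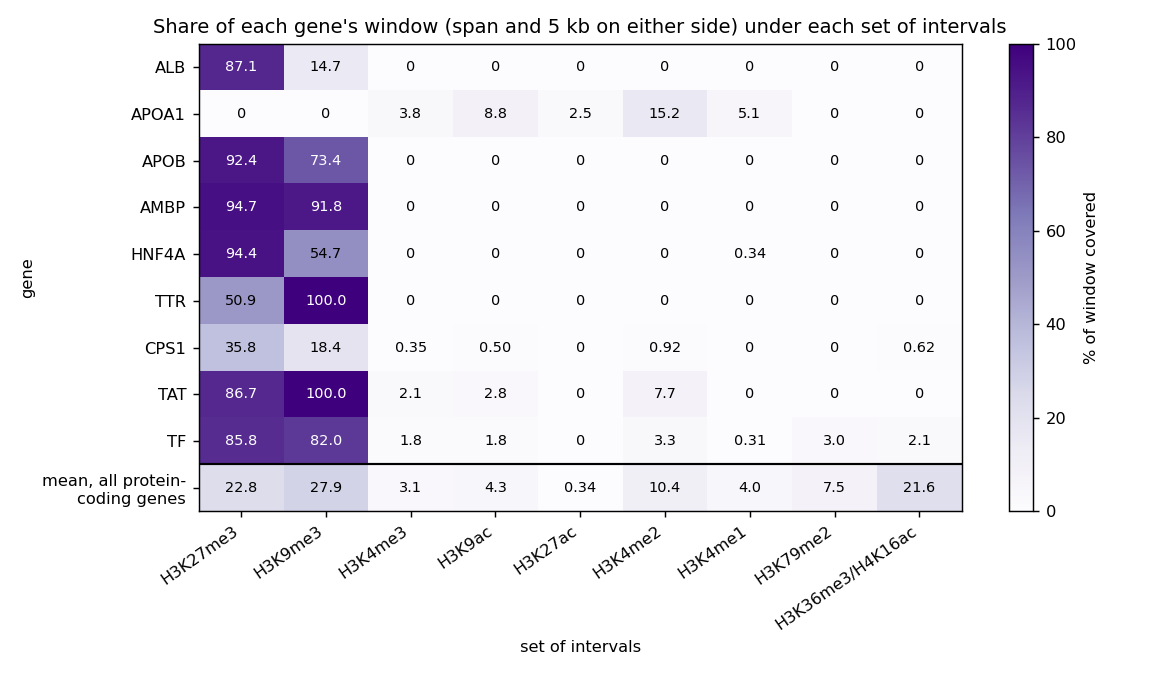
Each cell gives the percent of a gene's window (span and 5 kb on either side) under each set of intervals, with darker shading for a larger share, and the last row gives the mean over all protein-coding genes. Every liver gene but APOA1 has H3K27me3 and H3K9me3, the first 2 columns, and no other set reaches more than 15.2% of any window. The H3K9me3 shares of ALB (14.7%) and CPS1 (18.4%) lie below the mean of 27.9% over all protein-coding genes.

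HNF4A, the nuclear receptor that many liver genes depend on, lies on chromosome 20 from 44355699 to 44434596. H3K27me3 covered 83898 bp, 94.4% of its window, and 94.9% of the gene span. H3K9me3 rows covered 48596 bp, 54.7% of the window, in 6 separate regions, and 94.9% of that sequence lay under H3K27me3 as well. The gene has 2 listed starts 45540 bp apart. Start 1 is the P2 promoter known from pancreas and fetal liver, and start 2 is the P1 promoter used in adult liver. Start 1 lay under H3K27me3 and H3K9me3, and start 2 under H3K27me3, with the nearest H3K9me3 row 1762 bp downstream. The nearest H3K4me3 was 44499 bp upstream of start 1 and 90039 bp upstream of start 2. H3K27me3 thus lay over both starts, which hold 11 and 9 CG dinucleotides in the sequences shown.

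HNF4A had a single small active-type region. It was an H3K4me1 region of 300 bp at chr20:44387101-44387400, between the starts and 13839 bp upstream of start 2, within the antisense gene HNF4A-AS1. All 300 bp of it lay under H3K27me3 and 0 bp under H3K9me3. The antisense gene itself was under H3K27me3 over 98.7% of its span. R3HDML, a protein-coding gene next to HNF4A, was under H3K27me3 over 100% of its span and under H3K9me3 over 7.04%.

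ALB encodes albumin, the main protein of blood plasma, and lies on chromosome 4 from 73404287 to 73421482. H3K27me3 covered 23696 bp, 87.1% of the window, in 5 regions, and 50.4% of it by regions at or above the median width alone. H3K9me3 had 1 region of 4000 bp, 14.7% of the window, in the gene body 4714 bp downstream of the start and wholly under H3K27me3. That region was narrower than the median of the H3K9me3 regions. The start shown was under H3K27me3 alone. No other set had an interval in the window, and the nearest H3K4me3 was 144587 bp upstream of the start. ALB therefore had the smallest H3K9me3 share among the 8 genes that had any.

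TTR encodes transthyretin, a carrier of thyroxine and of retinol-binding protein, and lies on chromosome 18 from 31591877 to 31598821. Its marks ran the other way from those of ALB. H3K9me3 rows covered all 16945 bp of the window in 1 region of 36 kb, and H3K27me3 covered 8624 bp, 50.9% of it. The H3K27me3 region covered the lower end of the gene and stopped 3321 bp before its upper end, and all of it lay under H3K9me3. The nearest H3K4me3 was 92324 bp from the lower end.

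AMBP encodes a precursor that is cut into alpha-1-microglobulin and the protease inhibitor bikunin, and lies on chromosome 9 from 114060127 to 114078300. H3K27me3 covered 26674 bp, 94.7% of the window, and H3K9me3 rows 25874 bp, 91.8%. The listed start, on the minus strand, was under both marks and 77101 bp from the nearest H3K4me3. No base of the window was free of both marks. ZNF618, a zinc finger gene that reaches into the window, was under H3K27me3 over 85.0% and H3K9me3 over 91.9% of its span.

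TF encodes transferrin, the iron carrier of plasma, and lies on chromosome 3 from 133661998 to 133796641. It was split along its length. H3K27me3 covered 124141 bp, 85.8% of the window, and H3K9me3 rows 118641 bp, 82.0%, and 92.4% of the H3K9me3 sequence lay under H3K27me3. Both began inside the gene, H3K9me3 5003 bp and H3K27me3 6503 bp downstream of start 1.

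Start 1 of TF lay under 4 active sets. An H3K4me3 region of 2550 bp at chr3:133659901-133662450, an H3K9ac region of 2100 bp, an H3K4me2 region of 4200 bp and an H3K79me2 region of 4350 bp all covered it, with 0 bp under either repressive mark. The same regions covered the start of TOPBP1, a DNA damage response gene read in the opposite direction, which is listed at position 133661941. LOC124909487, a protein-coding gene at the same place, was under H3K4me3 over 58.0% of its span. Of the 2550 bp of H3K4me3, 453 bp lay in the TF span. The H3K36me3/H4K16ac set had a region of 60500 bp that covered 96.9% of TOPBP1 and 0 bp of the TF span. Further along TF, H3K4me1 had 450 bp beginning 1503 bp downstream of start 1.

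Start 2 of TF, 84395 bp further on, lay under H3K27me3 and H3K9me3 and 59308 bp from the nearest H3K4me3. Its 23 CG dinucleotides were the most of any liver start under a repressive mark. Start 1, with 36, was the only one of the 9 listed starts under H3K4me3, in the region that also covered the TOPBP1 start. Which TF start is used in liver was not examined, so H3K4me3 at start 1 may not mark the transferrin promoter of liver. SRPRB, a gene for a subunit of the signal recognition particle receptor that overlaps the far end of the window, was under H3K27me3 over 40.4% and under H3K36me3/H4K16ac over 39.3% of its span.

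**Figure D3:**
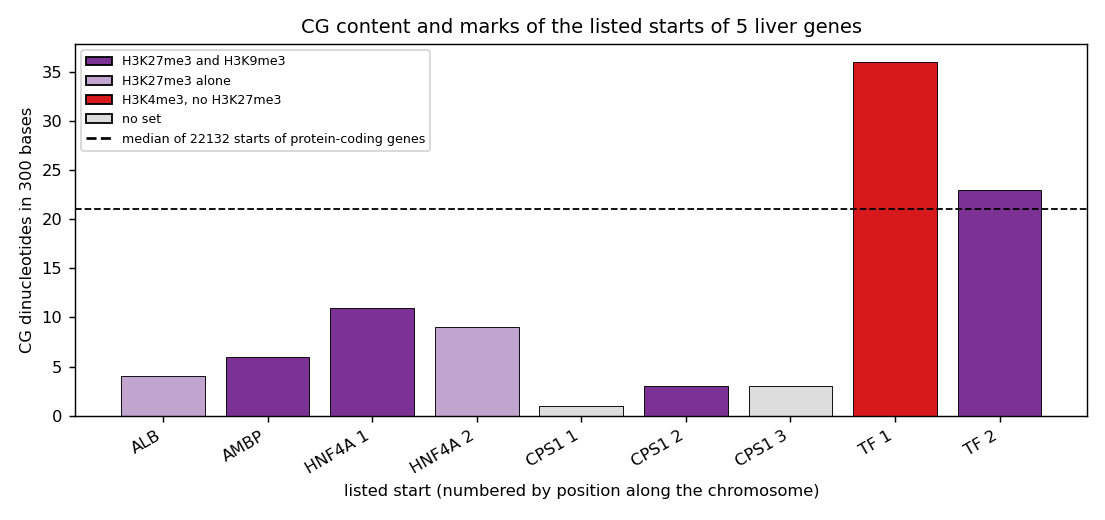
Bars give the number of CG dinucleotides in the 300 bases around each of the 9 listed starts of 5 liver genes, coloured by the sets over the start, and the dashed line is the median of 21 over 22132 starts of protein-coding genes. TF start 1, under H3K4me3, has 36 and TF start 2, under both repressive marks, has 23, while the other 7 starts have 1 to 11.

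Over all 9 listed starts, H3K27me3 covered 6, against 23.6% of the 22132 listed starts of protein-coding genes. H3K9me3 covered 4 of the 9, against 23.2%, and the pair together covered 4, against 16.4%. H3K4me3 covered 1, against 42.0%, as did H3K9ac, against 47.7%, H3K4me2, against 58.3%, and H3K79me2, against 12.0%. H3K27ac, H3K4me1 and H3K36me3/H4K16ac covered 0 of the 9, against 2.83%, 4.28% and 1.41% of all listed starts. Starts of the same gene share its surroundings and are not independent, and some listed starts may not be those used in liver.

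APOA1 and APOB encode the main proteins of high-density and low-density lipoprotein, and they lay at opposite ends of the range. APOB, on chromosome 2 from 21001429 to 21044073, had 48645 bp of H3K27me3, 92.4% of its window, and 38645 bp of H3K9me3, 73.4%, with 92.2% of the H3K9me3 sequence under H3K27me3. APOA1, on chromosome 11 from 116835751 to 116837622, had 0 bp of both. The nearest H3K27me3 was 24251 bp and the nearest H3K9me3 row 20751 bp below its lower end. APOB had no active set in its window, and its nearest H3K4me3 was 178129 bp below its lower end. The lower end of APOB lay under H3K27me3 and 1429 bp from the nearest H3K9me3 row. Its upper end lay under neither mark, 73 bp from H3K27me3 and 4928 bp from the nearest H3K9me3 row.

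The active sets at APOA1 lay around its lower end, which is the end of transcription for this gene, since APOA1 is read toward APOC3. H3K4me3 had 450 bp at chr11:116835451-116835900, of which 150 bp were in the gene. H3K9ac had 1050 bp, H3K4me2 1800 bp, H3K4me1 600 bp and H3K27ac 300 bp, the last at chr11:116835451-116835750 and beside the gene, with 0 bp in its span. The upper end of APOA1 lay 1722 bp from the H3K4me3 region and 1872 bp from the H3K27ac region. No set covered APOC3, the neighbouring gene for an inhibitor of lipoprotein lipase, within its span. H3K36me3/H4K16ac covered 33.1% of the antisense gene APOA1-AS, and began 5379 bp above APOA1.

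CPS1 encodes the mitochondrial enzyme that feeds ammonia into the urea cycle, and lies on chromosome 2 from 210477685 to 210679107. It was the longest of the 9 genes and had the smallest H3K27me3 share of the 8 that carried the mark. H3K27me3 covered 75607 bp, 35.8% of the window, in 13 regions, and H3K9me3 rows 39000 bp, 18.4%, with 88.5% of that under H3K27me3. Neither mark covered the remaining 131316 bp of the window.

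The active sets in the CPS1 window lay at LANCL1, its neighbour. H3K4me3 had 750 bp at chr2:210476101-210476850, H3K9ac 1050 bp and H3K4me2 1950 bp, all over the listed start of LANCL1 at position 210476759 and with 0 bp in the CPS1 span. The H3K36me3/H4K16ac region of 10500 bp lay over LANCL1, a gene for a glutathione-binding protein, which was under this set over 66.4% of its span. The listed starts of CPS1 may not include the start used in liver. Start 1 of CPS1 was under no set and lay 835 bp from the H3K4me3 region. Start 2, 42033 bp further on, was under both repressive marks. Start 3, 73637 bp beyond start 2, was under no set and 7855 bp from the nearest H3K27me3.

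TAT encodes tyrosine aminotransferase, which begins the breakdown of tyrosine and is induced by glucocorticoids in liver, and lies on chromosome 16 from 71565660 to 71577092. H3K9me3 rows covered all 21433 bp of the window in 1 region of 93.0 kb, and H3K27me3 covered 18592 bp, 86.7%. Active sets lay on top of them. H3K4me3 had 450 bp at chr16:71565151-71565600 and H3K9ac 600 bp, and both lay wholly under H3K27me3 and H3K9me3. H3K4me2 had 1650 bp, with 1150 bp under H3K27me3 and all of it under H3K9me3.

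These TAT regions lay at the lower end of the gene, among the starts of the antisense gene TAT-AS1. TAT is read opposite to TAT-AS1, whose starts are on the plus strand, so its lower end is the end of transcription. The upper end of TAT lay under H3K27me3 and H3K9me3 and 11492 bp from the H3K4me3 region. The H3K4me3 region was 135 bp from the TAT-AS1 start at position 71565016, and the H3K9ac region 39 bp from the one at 71565789. H3K4me3 had 0 bp in the TAT span, H3K9ac 91 bp and H3K4me2 391 bp. TAT was thereby the only one of the 9 windows in which H3K4me3 and H3K27me3 covered the same bases, as the H3K4me3 regions of CPS1 and TF had 0 bp under it. Intervals from separate libraries do not tell whether the marks sat on the same chromosome copy or in the same cells.

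**Figure D4:**
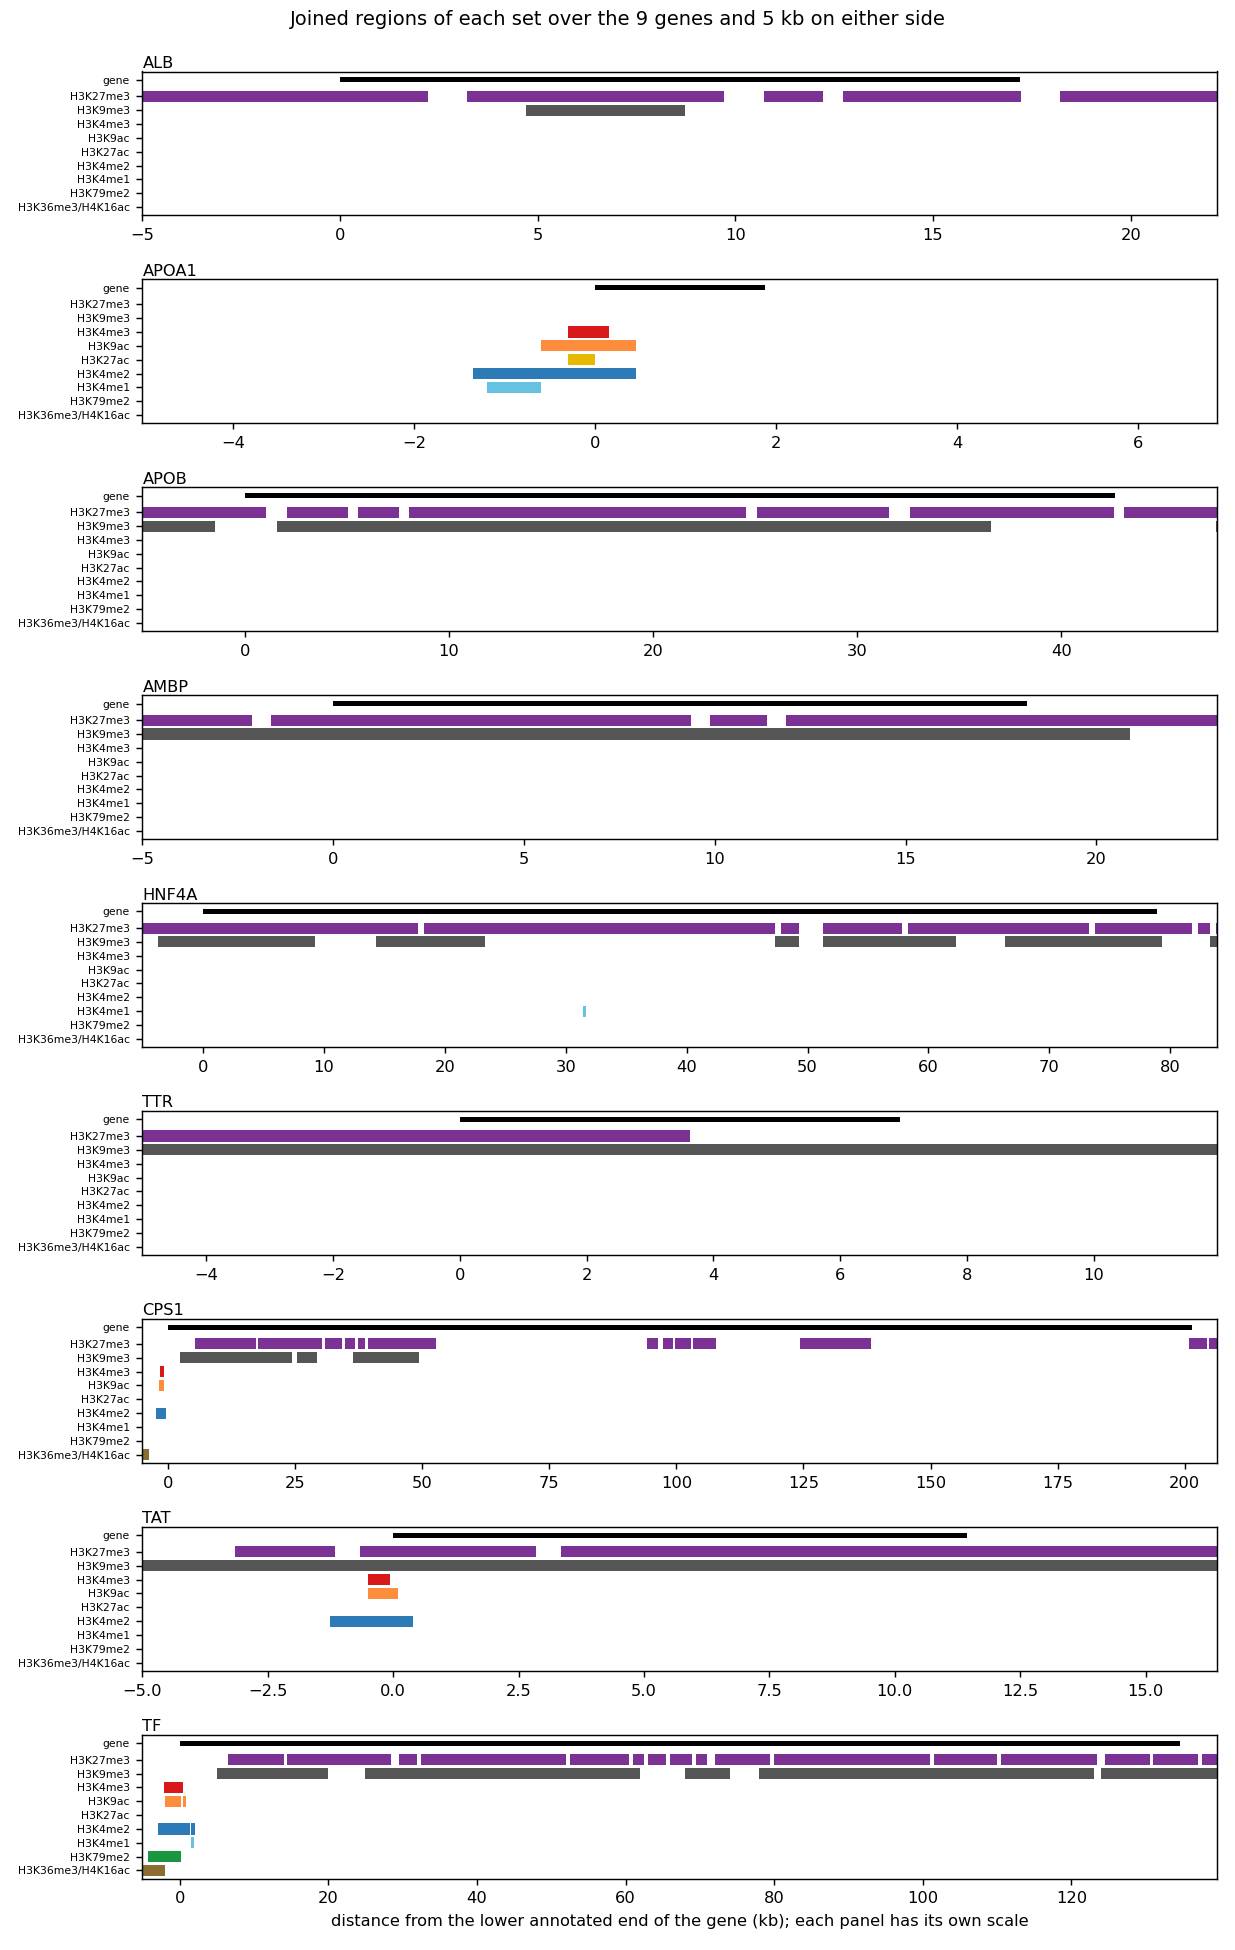
Each panel maps the joined regions of the 9 sets over 1 gene and 5 kb on either side, by distance in kb from the lower annotated end of the gene, which is drawn as a black bar. H3K27me3 and H3K9me3 run along 8 genes, active regions sit at the lower end of APOA1, CPS1, TAT and TF, and in TF and CPS1 the repressive regions begin inside the gene.

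The repressive marks largely shared their sequence at the liver genes. The share of H3K9me3 under H3K27me3 was 100% at ALB, 94.9% at HNF4A, 94.2% at AMBP, 92.4% at TF, 92.2% at APOB, 88.5% at CPS1, 86.7% at TAT and 50.9% at TTR. Over all the chromosomes used, 62.6% of H3K9me3 lay under H3K27me3, so 7 of the 8 genes were above and TTR below that share. Wide H3K27me3 cover of a window gives a high share by itself, so this comparison does not show a tie between the marks. H3K27me3 cover of the window was equal or close to the share at TAT (86.7%), TTR (50.9%), APOB (92.4%), AMBP (94.7%) and HNF4A (94.4%). It was lower than the share at TF (85.8%) and ALB (87.1%), and by the most at CPS1 (35.8%). In the other direction, the share of H3K27me3 under H3K9me3 was 16.9% at ALB, 45.6% at CPS1, 54.9% at HNF4A and from 73.3% at APOB to 100% at TTR and TAT, against 69.7% over the chromosomes.

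The H3K27me3 regions were made of short intervals, of which 84.3% in the file are 1000 bp long, and they were broken by gaps. The region with most sequence in each window was 8.0 kb wide at ALB, 14.0 kb at CPS1, 16.5 kb at APOB and TTR, 21.0 kb at TF, 23 kb at AMBP, 29.0 kb at HNF4A and 34.0 kb at TAT, against a median of 5000 bp over 117702 regions. With gaps of up to 1 kb closed, a setting chosen after seeing the data, the runs were longer at every one of these genes but TTR. They were 275.5 kb at APOB, 135.5 kb at TF, 115.0 kb at AMBP, 78.5 kb at HNF4A, 67.5 kb at TAT, 61 kb at ALB, 47.5 kb at CPS1 and 16.5 kb at TTR, against a median of 14000 bp over 34163 runs. The APOB run was among the widest 0.36% of runs.

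The runs differed in what they held besides the liver gene. The ALB run, chr4:73398501-73459500, held ALB and its neighbour AFP, the gene for the fetal plasma protein alpha-fetoprotein, whose own window was under H3K27me3 over 86.1%. The AMBP run held AMBP and KIF12 and 1 H3K4me3 region. The APOB run held no other whole protein-coding gene and no H3K4me3. The TF run, chr3:133668501-133804000, ended 6050 bp from H3K4me3 on its lower side and 1700 bp from H3K4me3 on its upper side, close to both of its ends. The ALB run was 138800 bp and 579150 bp from H3K4me3 on its sides.

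Cover around the windows separated genes in wide H3K27me3 surroundings from genes that stood out of theirs. In the 100 kb on either side of the window, H3K27me3 covered 93.3% at APOB, 74.9% at AMBP, 74.5% at ALB, 64.2% at TAT, 52.7% at HNF4A, 44.6% at CPS1, 22.9% at TTR, 5.63% at APOA1 and 1.75% at TF. The window share was above the flanks at 6 genes (ALB, AMBP, HNF4A, TTR, TAT and TF), by the most at TF with 85.8% against 1.75%. It was below them at CPS1 and APOA1, and at APOB it was 92.4% against 93.3%. For the H3K9me3 rows, the windows of TTR and TF had 100% and 82.0%, against 15.1% and 10.2% in their flanks, and ALB had 14.7% against 27.6%.

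**Figure D5:**
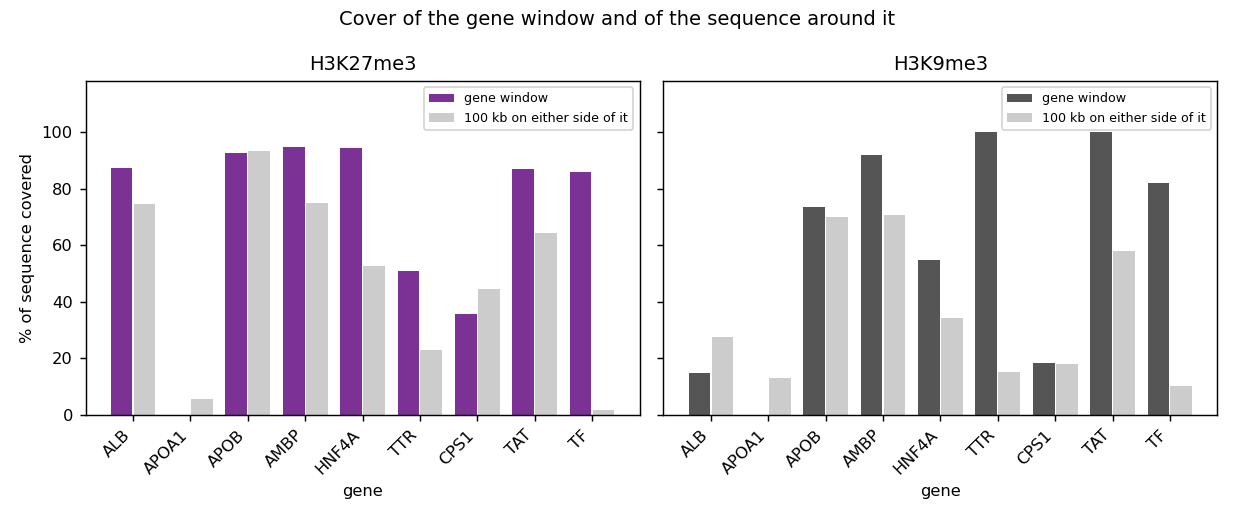
For each of the 9 genes, bars give the percent of sequence under H3K27me3 (left panel) and H3K9me3 (right panel) in the gene window, beside the same in the 100 kb on either side of it. APOB has nearly equal H3K27me3 bars, while TF has 85.8% in its window and 1.75% in its flanks.

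The other liver genes were read in the same way, from 60 genes listed by role. H3K27me3 was in the window of 39 of the 60, H3K9me3 of 50, H3K4me3 of 9 and H3K27ac of 2, where 44.4%, 68.4%, 58.4% and 10.9% of protein-coding genes had these marks. H3K9ac was at 15, against 62.9%, H3K4me2 at 28, against 78.2%, and H3K4me1 at 18, against 56.4%. H3K79me2 was at 4, against 47.6%, and H3K36me3/H4K16ac at 10, against 56.3%. Both repressive marks were at 36, against 41.0% of protein-coding genes. Of the 60, 28 had both repressive marks and none of the 5 active sets named above, a state held by 22.1% of protein-coding genes. The median share of the window under H3K27me3 was 86.7% over the 9 genes and 37.9% over these 60, and that under H3K9me3 was 73.4% over the 9 genes and 42.3% over these 60.

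The roles differed in their marks, and each count by role stands beside 44.4% of protein-coding genes with H3K27me3 and 58.4% with H3K4me3. Among 12 hepatic transcription factors, 9 had H3K27me3 and 3 had H3K4me3. The pioneer factors FOXA1 and FOXA2 were under H3K27me3 over 100% of their windows. FOXA3 and the nuclear receptor NR1I3 had H3K4me3 over 3.85% and 3.24% of theirs. Over all roles together, 9 other liver genes had H3K4me3 in the window, but only 2 had it in the gene span alone. At most of these genes H3K4me3 thus lay only in the 5 kb on either side, where neighbouring genes may lie. Whether it belonged to the liver gene or to a neighbour was not tested. Among 15 plasma proteins, the class of ALB, TTR, AMBP and TF, 11 had H3K27me3 and 0 had H3K4me3, with 100% of the window covered at CRP and 94.96% at FGB, a fibrinogen chain. Among 6 coagulation factors 5 had H3K27me3 and 0 had H3K4me3, with 98.6% at F11 and 92.7% at PLG, the plasmin precursor.

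The apolipoproteins of the APOA and APOC families had other marks. H3K27me3 was at 0 of the 4 listed (APOA2, APOA4, APOA5 and APOC3), as at APOA1, against 44.4% of protein-coding genes. H3K4me3 was at 3, against 58.4%. It covered 9.19% of the APOA5 window and 5.29% of the APOA2 window, and in the APOC3 window it was the region described at APOA1. APOA4, APOA5 and APOC3 lie near APOA1 on chromosome 11, so these neighbours are not separate cases. The APOA2 window overlaps that of NR1I3, named above, and each held 600 bp of H3K4me3, so they may share a region. APOB had H3K27me3, as did APOH, an apolipoprotein listed among the plasma proteins, over 90.99% of its window. Among 5 urea cycle genes, the class of CPS1, 1 had H3K27me3, which was OTC with 85.0%, and 2 had H3K4me3, OTC with 0.998% and ASL with 2.16%. Among 5 genes of amino acid breakdown, the class of TAT, 2 had H3K27me3, with 42.7% at TDO2, and HPD had H3K4me3 over 1.78%. Whether the H3K4me3 in the windows of APOA2, APOA5, OTC, ASL and HPD belonged to these genes or to neighbours was not tested.

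The remaining roles were mostly under H3K27me3. It was at both glucose output genes, with 100% at PCK1 and 16.9% at G6PC1, at 5 of 6 surface and transport genes, with 89.5% at ASGR2 and 71.1% at ABCB11, and at 4 of 5 genes of drug and bile acid metabolism, with 91.9% at CYP3A4 and 81.7% at CYP8B1. H3K4me3 was at 0 of these 13 genes. Over all protein-coding genes the shares were 44.4% for H3K27me3 and 58.4% for H3K4me3.

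For each of the 9 genes, the protein-coding genes with the most similar cover were sought. Likeness was the summed difference in percent of the window over the 9 sets, without replicates. It was smallest for TTR, with KIR2DL3, a natural killer cell receptor gene, at 0.006 percentage points. ZNF177, a zinc finger gene, followed at 0.128. For APOB the nearest were MUCL1 at 0.431 and GRPR at 1.03, for AMBP SORBS2 at 0.608, for ALB SNTN at 0.898 and OR8B2 at 1.07, and for HNF4A OR5K3 at 1.66 and LRAT at 1.902. For CPS1 the nearest were GRM8 at 3.05 and MUC5AC at 4.23, and for TAT ZNF155 at 3.16 and VSIG8 at 6.73. For APOA1 they were FAAP20 at 5.14 and WNT11 at 5.58, and for TF BICDL1 at 10.05 and ABCC8 at 10.26. The sets present at ALB, APOB, AMBP and TTR were also those of 2477 protein-coding genes, or 12.4%, while those of APOA1 were shared by 17 genes.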

How the data were processed

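KBM-7 chromatin was immunoprecipitated for 9 marks, in 12 libraries with 3 inputs. The authors deposited 1 list of called intervals whose only numbers are positions (unit: other); no count, score or signal comes with them. The tools listed in the submitters' processing notes are cutadapt, Bowtie2 and MACS, with the build GRCh38, and their versions, roles and thresholds were not given in the sources used here. The inputs entered no comparison.

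Starts ending in 1 on the 50 bp grid of the file were brought to counting from 0, and overlapping or adjacent intervals of a mark were joined. H3K36me3 and H4K16ac held 45695 identical intervals and were used as 1 set. Rows of 1 label matching no sample, H3K9me3, were used because the rule for the genes names them; rows labelled None were not used. This gave 9 sets. Windows were the RefSeq gene span with 5 kb on either side, and at least 1 bp counted as having a mark. Promoter sequences and starts came from RefSeq, GRCh38.p14.

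The 9 genes, the lists and the tests were chosen with earlier results of these data known. Named besides the members were, in each role, the 2 genes with most H3K27me3 and the 2 with most H3K4me3 cover, the protein-coding neighbours in the windows, and the 2 most alike genes per member (some named by this rule are not reported here); AFP, KIF12, APOH, and the marked or unmarked genes that a count singles out were named after their values were seen. Closed gaps, 100 kb flanks, alternatives for the 80% line and likeness without H3K9me3 rows were added after seeing the data. Interval functions were tested on made-up intervals. Python 3.11.15, numpy 2.4.6, pandas 2.3.3 and matplotlib 3.10.9 were used.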

Additional observations from a re-analysis of the deposited data

How the results depend on the processing

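The count of the 9 genes with H3K27me3 was 8 under each of the 6 alternatives run. That with H3K9me3 was 8 under 5 of them and 7 among regions at or above the median width, where ALB lost its only region. Both counts for the other 60 liver genes stayed within 1.5 times. The number of the 9 genes with H3K27me3 over at least 80% of the window, at 6, was 2 among wider regions and 5 or 6 under the other 4 alternatives, and that with H3K9me3, at 4, was 3 to 5. Counts of active sets among the 9 genes moved. H3K4me3, at 4, was at 2 in the gene span alone, 2 with at least 500 bp covered, 1 among regions at or above the median width, and 2 without sequence near other protein-coding genes. H3K27ac, at 1, was at 0 in the span, with at least 500 bp, and among wider regions. H3K4me1, at 3, was at 1 with at least 500 bp and 0 among wider regions. Without sequence near other protein-coding genes, H3K9ac and H3K4me2, each at 4, were at 2, H3K79me2 was at 0 instead of 1, and H3K36me3/H4K16ac, at 2, was at 0, as also in the span and with 1 kb. Among the other 60 genes, H3K4me3, at 9, was at 2 in the span, 4 with 1 kb and 14 with 10 kb; H3K79me2, at 4, was at 1, 2 and 7; and H3K36me3/H4K16ac, at 10, was at 4, 6 and 16. H3K9ac, at 15, was at 7 in the span, H3K4me1, at 18, was at 11 in the span and with 1 kb, and H3K27ac, at 2, was at 1 in the span, with 1 kb, and with at least 500 bp. Smaller windows hold less sequence by construction. Of the shares of single genes, 408 stayed close and 78 moved. All 81 distances from starts were the same with intervals as deposited. Without H3K9me3 rows, 4 of the 18 most alike genes were named again. No paired analysis was possible because each mark has 1 library. Regions lie on grids of 50 bp or coarser and depth is unknown, so short regions and narrow gaps are the least certain values.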

Other observations

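Marker genes of other liver cell types were read in the same windows. Of 4 biliary genes, H3K27me3 was in the window of 4, over 96.8% at SOX9, a transcription factor of bile ducts, 96.6% at the keratin gene KRT19, 89.2% at the adhesion gene EPCAM and 3.86% at the keratin gene KRT7, where 44.4% of protein-coding genes had the mark. H3K4me3 was at 0 of the 4 and H3K27ac at 1, which was KRT7 with 2.30% of the window, against 58.4% and 10.9% of protein-coding genes. KRT7 also had H3K4me1 over 16.9% and H3K4me2 over 16.4% of its window, more than any of the 9 hepatocyte genes, and no H3K9me3 row. Of 5 endothelial and stellate genes, H3K27me3 was at 4, over 96.2% at CLEC4G, 93.3% at LRAT, 88.4% at RELN and 86.7% at STAB2, and at LYVE1 it was not called. H3K4me3 was at 0 of these 5. No list was tested.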
